A study of Mus musculus with 12 samples.

Results

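The tripartite motif (TRIM) genes are the 54 genes whose symbol begins with Trim and a digit in the table of wild-type libraries, out of 16516 gene symbols listed in the whole series. They were followed in bone marrow-derived macrophages of mice of 2 genotypes, MGMT KO (KO) and WTfl/fl (WT). Each genotype was given the STING agonist DMXAA or its vehicle DMSO for 24 h, which makes 4 groups: KO with DMXAA, WT with DMXAA, KO with DMSO and WT with DMSO. RNA-seq was made from 3 libraries of each group, 12 in all. How the MGMT deletion was made, the age of the mice and whether the 3 libraries of a group came from separate mice are not given in the sources used here, so the p-values measure only the spread between these libraries. All 12 libraries carry the same batch label, and what that label stands for is not stated.

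TRIM proteins share a RING domain that transfers ubiquitin, 1 or 2 B-boxes and a coiled coil, followed by a C-terminal region that picks the target and by which the family is sorted into classes. The largest class ends in a PRY-SPRY domain; others end in NHL repeats, a PHD finger with a bromodomain, or a MATH domain, and a few members lack the RING. In macrophages many TRIM genes are known as interferon-induced, and their products act on nucleic acid sensors, on their adaptors or on viral capsids: TRIM25 modifies RIG-I, TRIM21 is a cytosolic antibody receptor, and primate TRIM5 binds retroviral capsids. DMXAA is a small molecule that binds mouse STING, the adaptor that passes the signal of the DNA sensor cGAS to the interferon genes. MGMT is known for reversing alkylation damage at guanine in DNA.

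Sequence around the start site is shown for 8 of the 9 members whose promoter window held an interferon-stimulated response element (ISRE) core, a motif known from interferon-induced genes. They were chosen for holding a match. The match not shown is that of Trim2, which fell in WT and held it in only 1 of its windows (chr3:84212789-84213088, minus strand). Trim68 is shown beside them as a member without a match. Trim6, Trim30b and Trim34b also held none and rose in WT, and their sequences are not shown. For Trim30b the window searched lies inside the annotated gene and not at its start. The windows are those of RefSeq on GRCm38.p6, from 250 bases before to 50 after an annotated start, and 40 of the 54 members had one. The ISRE core searched, on both strands, was GAAA, then any 2 bases, then GAAA. Capitals mark each match, which reads TTTC, any 2 bases and TTTC where it lies on the opposite strand. Trim30a (chr7:104465194-104465293, minus strand), Trim30d (chr7:104507850-104507949, minus strand), Trim5 (chr7:104288107-104288206, minus strand) and Trim12c (chr7:104353350-104353449, minus strand) are given as the 100 bases before the start. Trim34a (chr7:104244457-104244486, plus strand) and Trim12a (chr7:104315466-104315495, minus strand) are given as the 30 bases from the start on, and Trim21 (chr7:102565447-102565476, minus strand) as bases 7 to 36, with 2 overlapping matches.
Trim30a: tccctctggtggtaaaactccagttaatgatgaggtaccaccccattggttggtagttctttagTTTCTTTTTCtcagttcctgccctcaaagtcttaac
Trim30d: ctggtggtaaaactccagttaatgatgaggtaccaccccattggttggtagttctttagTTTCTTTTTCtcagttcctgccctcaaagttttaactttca
Trim5: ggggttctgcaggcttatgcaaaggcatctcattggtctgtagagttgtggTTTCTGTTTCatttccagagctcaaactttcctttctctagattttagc
Trim12c: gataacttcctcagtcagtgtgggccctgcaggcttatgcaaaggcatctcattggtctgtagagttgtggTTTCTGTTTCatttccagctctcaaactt
Trim34a: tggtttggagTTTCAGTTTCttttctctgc
Trim12a: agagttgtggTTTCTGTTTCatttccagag
Trim21: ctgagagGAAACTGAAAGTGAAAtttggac
Trim26, which rose less, had 2 overlapping matches farther out, in the stretch from 200 to 101 bases before its start (chr17:36836946-36837045, plus strand). Trim68, the member of the same chromosome 7 group that fell, had no match in its window, of which the 100 bases before the start are given (chr7:102687328-102687427, minus strand).
Trim26: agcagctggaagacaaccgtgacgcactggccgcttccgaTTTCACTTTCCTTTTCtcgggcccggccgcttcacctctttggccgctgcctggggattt
Trim68: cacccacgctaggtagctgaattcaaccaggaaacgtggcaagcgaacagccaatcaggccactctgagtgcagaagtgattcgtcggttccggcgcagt

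Depth was 94.1 to 98.1 M (M, mega) recovered reads in the KO DMXAA libraries, 85.1 to 92.5 M in WT DMXAA, 79.9 to 92.4 M in KO DMSO and 79.5 to 93.9 M in WT DMSO. Mgmt, the targeted gene, had 51, 61 and 33 reads in the KO DMXAA libraries, against 107, 85 and 99 in the WT DMXAA libraries. It had 121, 141 and 162 in the KO DMSO libraries, against 263, 245 and 243 in the WT DMSO libraries. The genotypes did not overlap. On the log2 scale KO differed from WT by -1.11 (SE 0.247, limma adjusted p = 9.05e-03) under DMXAA and by -0.83 (SE 0.166, adjusted p = 5.66e-03) under DMSO. Mgmt reads were therefore fewer in KO and not absent, and whether they lie in the deleted stretch is not stated. The 8 macrophage markers summed to 9400 to 9490 reads per M reads in KO DMXAA, 11500 to 11700 in WT DMXAA, 16700 to 17500 in KO DMSO and 20600 to 21000 in WT DMSO. Of the 8, 2 rose and 6 fell after DMXAA in KO, and 2 rose and 5 fell in WT (limma adjusted p below 0.05). Of all tested genes, 33.7% rose and 32.9% fell in KO, and 31.7% rose and 31.1% fell in WT. The 4 dendritic cell markers summed to 3.80 to 4.88 reads per M in KO DMXAA and 3.82 to 4.25 in WT DMXAA, against 0.1 to 0.214 in KO DMSO and 0.109 to 0.352 in WT DMSO, with Siglech at 0 in both DMXAA groups. Only 1 of these 4 reached a mean normalized count of 10 in each genotype's DMXAA and DMSO libraries. The 3 endothelial markers summed to 57.8 to 59.7 in KO DMXAA and 51.6 to 53.5 in WT DMXAA, against 8.81 to 9.57 in KO DMSO and 6.26 to 6.92 in WT DMSO, with Tie1 at 0 in all 4 groups. The lists for T and NK, B, stromal and erythroid cells and neutrophils reached at most 5.96 reads per M in any library, with Elane at 0 in all groups. The part of these markers in the results was not tested.

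Per kilobase of exon, Trim30a was the most abundant member in both DMXAA groups and in WT DMSO. It stood at 114 ± 6.84 reads per kb per M reads in KO DMXAA and 129 ± 2.80 in WT DMXAA, against 17.3 to 18.8 in KO DMSO and 25.2 ± 1.44 in WT DMSO (SD, n = 3 each). Trim30a is a mouse ligase known to restrain Toll-like receptor signalling through TAB2 and TAB3. In WT DMSO its libraries (24.0 to 26.8) overlapped those of Trim28 (23.3 to 24.2), the corepressor of KRAB zinc finger proteins, and both lay above Trim3 (19.2 to 21.1), an NHL-repeat ligase. In KO DMSO the order was Trim28 at 22.9 ± 0.828 and Trim3 at 22.5 ± 0.829, whose libraries overlapped, ahead of Trim30a. In both DMXAA groups the next members were Trim34a (53.6 ± 3.68 in KO and 63.5 ± 1.43 in WT) and Trim30d (51.4 ± 1.78 in KO and 55.6 ± 1.29 in WT), then Trim25 and Trim21. Trim34a and Trim30d overlapped in KO DMXAA (50.7 to 57.7 and 49.4 to 52.8) and did not in WT DMXAA (61.9 to 64.6 and 54.1 to 56.5).

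The reads of all members together were 1859 to 1924 per M reads in KO DMXAA, against 1022 to 1039 in KO DMSO, and 2034 to 2137 per M in WT DMXAA, against 1063 to 1092 in WT DMSO. Trim30a alone gave 23.5 to 25.6% of the members' reads in KO DMXAA, against 6.98 to 7.43% in KO DMSO, and 25.4 to 26.0% in WT DMXAA, against 9.16 to 10.1% in WT DMSO. The TRIM5 and TRIM30 group of chromosome 7 (12 listed genes) gave 55.5 to 57.1% in KO DMXAA, against 20.5 to 21.4% in KO DMSO, and 58.5 to 59.5% in WT DMXAA, against 24.4 to 25.8% in WT DMSO. Most TRIM reads under DMXAA thus came from 1 chromosomal group, and most under DMSO from the rest of the family. In such bulk RNA, fewer cells of a type and less RNA per cell cannot be told apart.

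After DMXAA, members of the family split in both directions in both genotypes. In KO, 21 of the 43 tested members rose (33.7% of all tested genes did) and 15 fell (32.9%), so 83.7% were called, beside 66.6% of all tested genes. In WT, 21 of 44 rose (31.7% of all tested genes) and 15 fell (31.1%), so 81.8% were called, beside 62.8%. The libraries of the 2 treatments did not overlap for 33 of 43 tested members in KO (71.0% of all tested genes) and for 39 of 44 in WT (68.8%). A member is called at a limma adjusted p below 0.05, and tested where its mean normalized count in the comparison was at least 10. The members set apart by size were those that rose: 13 were called and at least 2-fold higher in KO (9.0% of all tested genes) and 14 in WT (8.48%). Falls of at least 2-fold were called for 3 members in KO (11.1% of all tested genes) and 2 in WT (10.4%). The median log2 change of the tested members was 0.23 in KO and 0.14 in WT, against 0 over all tested genes in both. With libraries scaled to the same total, these medians turned to -0.16 in KO and -0.17 in WT, while the median of all genes moved to -0.39 and -0.32. Higher genes then made up 20.3% of all called genes in KO and 22.4% in WT, where otherwise they made up 50.6% and 50.5%. Under that scaling 13 members were called higher in KO and 15 in WT, and 20 and 19 lower.

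**Figure D1:**
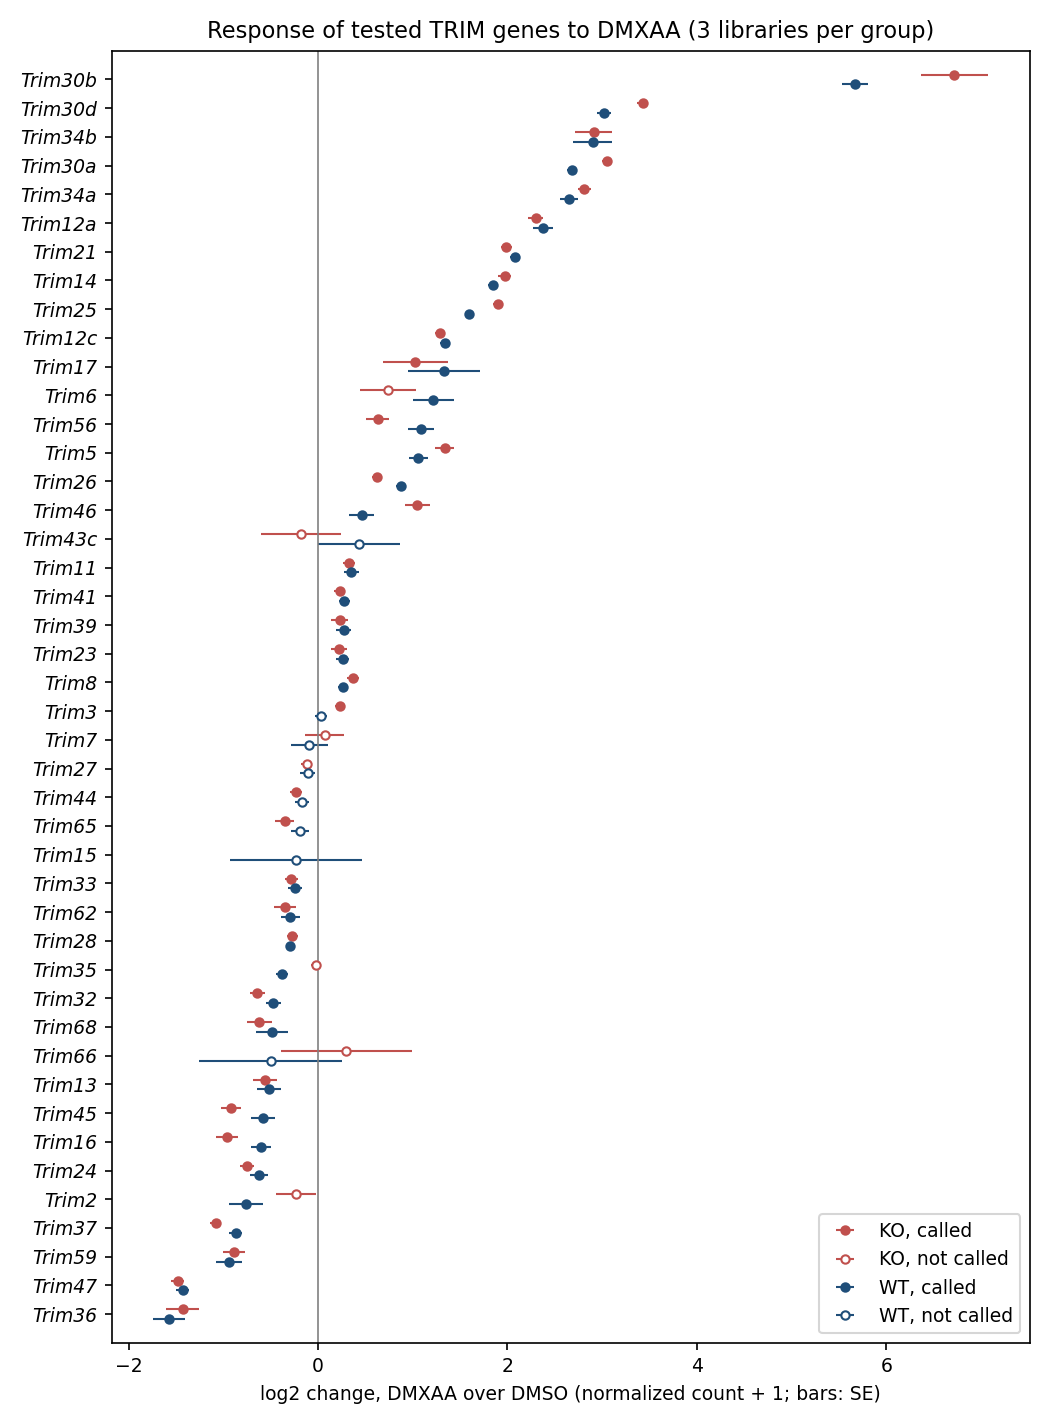
The log2 change of DMXAA over DMSO (x axis, with SE) is plotted for each tested TRIM gene (rows) in KO and WT, filled where called by limma. Trim30b lies highest, at 6.72 in KO and 5.67 in WT, and Trim36 (-1.43 and -1.57) and Trim47 (-1.48 and -1.43) lie lowest.

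The Trim30 genes are a mouse expansion with no single human counterpart. Trim30b, Trim30d and Trim30a had the 3 highest log2 changes of the tested members in KO, and in WT Trim34b (2.90) stood between Trim30d and Trim30a. Trim30a had 49339, 45746 and 51397 in the KO DMXAA libraries, against 5815, 6057 and 5749 in the KO DMSO libraries (normalized counts of the KO table). It had 52691, 52507 and 51155 in the WT DMXAA libraries, against 7798, 8588 and 8044 in the WT DMSO libraries (WT table). Every DMXAA library lay far above every DMSO library of its genotype, and the log2 change was 3.05 (SE 0.0502, adjusted p = 5.62e-12) in KO and 2.68 (SE 0.0474, adjusted p = 3.38e-11) in WT. Its neighbour Trim30d had 20183, 19418 and 20750.1 in the KO DMXAA libraries, against 1723, 1915 and 1978 in the KO DMSO libraries. It had 20589, 20770.4 and 19985 in the WT DMXAA libraries, against 2667, 2721 and 2207 in the WT DMSO libraries. The groups were again apart, with a log2 change of 3.43 (SE 0.0593, adjusted p = 8.03e-12) in KO and 3.02 (SE 0.0764, adjusted p = 3.84e-10) in WT. Trim30b had low counts under DMSO, with 1397, 1633 and 1636 in the KO DMXAA libraries, against 26.0, 6.80 and 14.1 in the KO DMSO libraries. It had 1712, 1732 and 1526 in the WT DMXAA libraries, against 27.0, 31.4 and 36.6 in the WT DMSO libraries. It had the highest log2 change of all members, 6.72 (SE 0.355, adjusted p = 5.74e-08) in KO and 5.67 (SE 0.138, adjusted p = 2.75e-10) in WT, which was rank 58 of 12704 tested genes in KO and rank 84 of 12752 in WT. The pseudogene Trim30e-ps1, at the end of the group, had normalized counts of 0.0 to 8.9 and was not tested. Trim30a and Trim30d share 4.41% and 4.57% of their 100-base transcript windows, and Trim30b shares none with another gene, so of these 3 counts that of Trim30b is the least touched by shared reads.

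**Figure D2:**
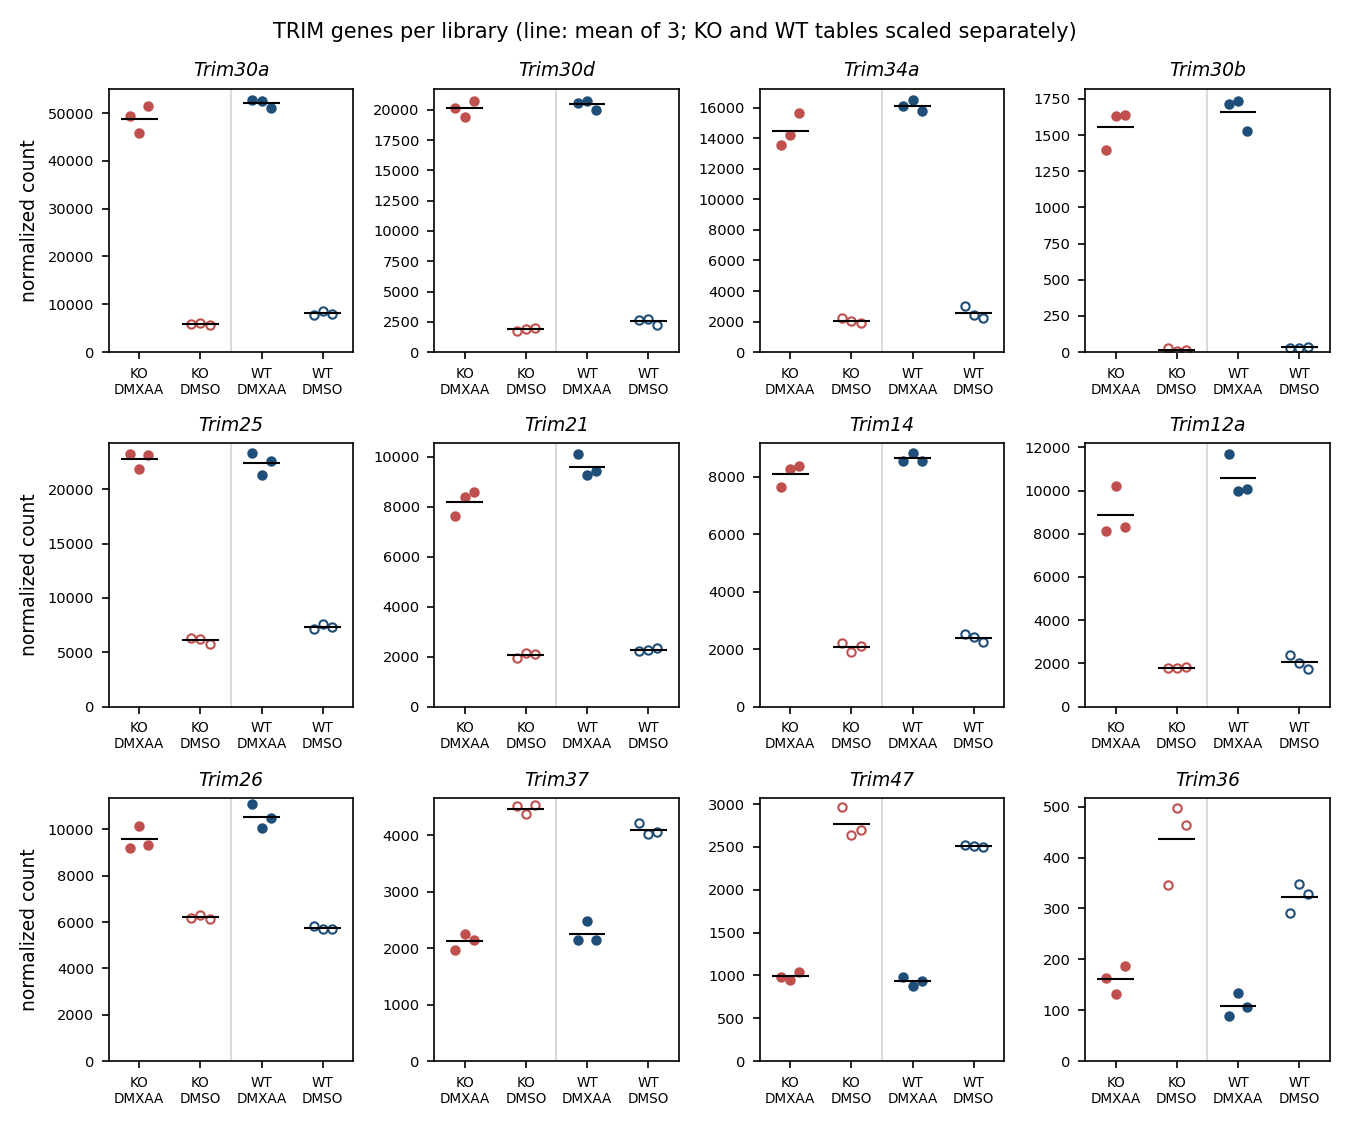
Normalized counts (y axis, linear from 0) of 12 TRIM genes are plotted per library in KO DMXAA, KO DMSO, WT DMXAA and WT DMSO, with a line at the mean of 3, and the KO and WT tables are scaled separately. The first 9 genes are higher in every DMXAA library than in every DMSO library of the same genotype, and Trim37, Trim47 and Trim36 are lower.

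Trim34a and Trim34b, the mouse paralogues of human TRIM34, rose together. Trim34a had 13555, 14202 and 15635 in the KO DMXAA libraries, against 2203, 2057 and 1904 in the KO DMSO libraries. It had 16087, 16502 and 15781 in the WT DMXAA libraries, against 3047, 2453 and 2241 in the WT DMSO libraries. Its groups did not overlap and its log2 change was 2.81 (SE 0.0693, adjusted p = 1.32e-10) in KO and 2.65 (SE 0.0962, adjusted p = 5.99e-09) in WT. Trim34b, at a far lower count, had 658, 713 and 1031 in the KO DMXAA libraries, against 85.0, 99.3 and 131 in the KO DMSO libraries. It had 1160.2, 795 and 807 in the WT DMXAA libraries, against 160.1, 113 and 96.0 in the WT DMSO libraries. The log2 change was 2.91 (SE 0.197, adjusted p = 4.10e-07) in KO and 2.90 (SE 0.203, adjusted p = 8.94e-07) in WT, with no overlap in either. Trim34b shares 30.5% of its 100-base windows with Trim34a, and Trim34a 21.0% of its own, so how the reads were split between them is uncertain. An antisense gene, Gm47248, also overlaps Trim34a, and whether counting used strand is not stated.

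Trim5 and Trim12a lie between the Trim34 genes and Trim12c just beyond Trim34b; mouse Trim12c is known as a relative of primate TRIM5 that acts with TRAF6 on interferon induction. Trim12a had 8111, 10212 and 8299 in the KO DMXAA libraries, against 1763, 1788 and 1817 in the KO DMSO libraries. It had 11679, 9986 and 10073 in the WT DMXAA libraries, against 2392, 2008 and 1749 in the WT DMSO libraries. The log2 change was 2.30 (SE 0.0813, adjusted p = 2.48e-09) in KO and 2.38 (SE 0.107, adjusted p = 3.14e-08) in WT. Trim12c had 6579.7, 6398 and 6399.9 in the KO DMXAA libraries, against 2689.8, 2729 and 2534 in the KO DMSO libraries. It had 7298, 7469 and 7139.8 in the WT DMXAA libraries, against 2794, 2952 and 2898 in the WT DMSO libraries. Its log2 change was 1.29 (SE 0.0502, adjusted p = 5.44e-09) in KO and 1.34 (SE 0.0502, adjusted p = 7.45e-09) in WT. Trim5 had 1041, 820.0 and 882 in the KO DMXAA libraries, against 372, 352 and 354 in the KO DMSO libraries. It had 877, 786 and 772 in the WT DMXAA libraries, against 387, 427 and 356 in the WT DMSO libraries. Its log2 change was 1.34 (SE 0.101, adjusted p = 9.94e-07) in KO and 1.06 (SE 0.0982, adjusted p = 7.32e-06) in WT. None of these 3 genes had overlapping groups in either genotype, and they share 2.87% (Trim12a), 8.05% (Trim12c) and 11.7% (Trim5) of their 100-base windows, mostly with each other.

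Trim6 opens the group and, in human cells, makes unanchored ubiquitin chains that act on the kinase IKKε. It had 75.7, 71.9 and 75.5 in the KO DMXAA libraries, against 73.4, 34.0 and 34.3 in the KO DMSO libraries. It had 85.4, 116 and 80.9 in the WT DMXAA libraries, against 36.2, 41.6 and 40.6 in the WT DMSO libraries. In KO the first DMSO library reached the DMXAA libraries and the change of 0.74 (SE 0.3, adjusted p = 5.03e-02) was not called, whereas in WT the groups were apart and the change was 1.22 (SE 0.216, adjusted p = 7.10e-04). Trim6 was called in KO without KO DMSO library 1 (adjusted p = 3.16e-03), with a pseudocount of 5 (adjusted p = 4.53e-02) and with title number as a block (adjusted p = 3.90e-02), and the difference between the genotypes was not called, at -0.48 (SE 0.382, adjusted p = 5.29e-01).

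Trim21 and Trim68 lie on the same chromosome outside the run of neighbours. Trim21, the cytosolic antibody receptor, had 7612, 8396 and 8581 in the KO DMXAA libraries, against 1946, 2138 and 2093 in the KO DMSO libraries. It had 10125, 9276 and 9424 in the WT DMXAA libraries, against 2211, 2247 and 2361 in the WT DMSO libraries. It rose by 1.99 (SE 0.062, adjusted p = 8.94e-10) in KO and 2.08 (SE 0.0556, adjusted p = 5.88e-10) in WT on the log2 scale, with no overlap. Trim68, known as a coactivator of the androgen receptor, went the other way, with 167, 189.5 and 149.9 in the KO DMXAA libraries, against 249, 249 and 283 in the KO DMSO libraries. It had 293, 184 and 267 in the WT DMXAA libraries, against 312, 349 and 363 in the WT DMSO libraries. Its log2 change was -0.62 (SE 0.133, adjusted p = 1.89e-03) in KO and -0.48 (SE 0.169, adjusted p = 3.01e-02) in WT, and the WT call was lost without WT DMSO libraries 2 or 3 or WT DMXAA library 2 (adjusted p = 7.66e-02 to 8.63e-02). Of the 11 tested genes of the group, 9 rose and 1 fell in KO (33.7% and 32.9% of all tested genes did). In WT, 10 rose and 1 fell (31.7% and 31.1%). Their median log2 change was 2.30 in KO and 2.38 in WT, beside 0 over all tested genes.

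**Figure D3:**
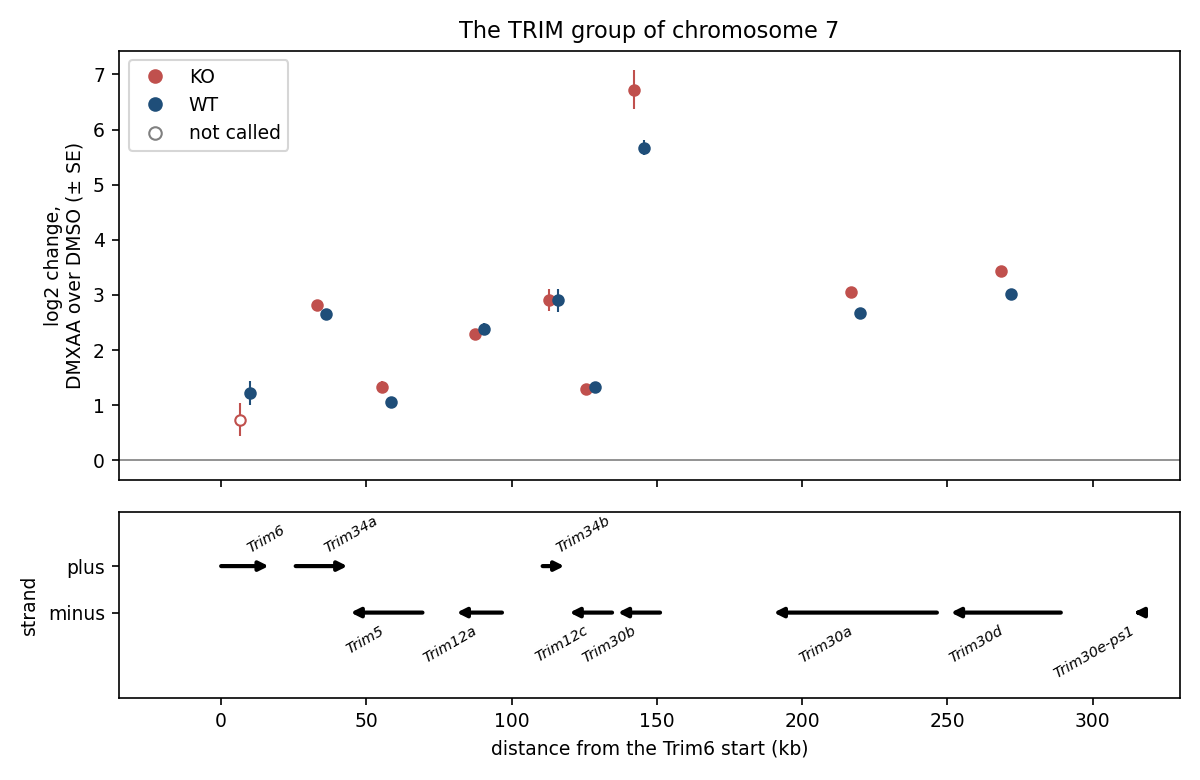
The log2 change of DMXAA over DMSO (upper y axis, with SE) in KO and WT is plotted against the distance in kb from the start of Trim6 for the 10 members between Trim6 and Trim30e-ps1, with their strands below. Each tested member of this stretch lies above 0, from 0.74 for Trim6 in KO, which was not called, to 6.72 for Trim30b in KO.

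This stretch runs from Trim6 to Trim30e-ps1 over 317 kb at chr7:104218793-104535361 (mm10, GENCODE vM21). Within it, Trim6, Trim34a and Trim34b lie on the plus strand and the other 7 on the minus strand. Chromosome 7 holds 16 of the 54 members in all. Outside the group, Trim28 and Trim3 moved less than the tested members of the group. Trim66 was not called, at 0.30 (SE 0.692) in KO and -0.50 (SE 0.753) in WT, and Trim72 was too low to test. Trim28 had a log2 change of -0.27 (SE 0.0576, adjusted p = 1.86e-03) in KO and -0.29 (SE 0.0466, adjusted p = 3.58e-04) in WT. Trim3 had 0.23 (SE 0.0506, adjusted p = 2.40e-03) in KO, and 0.03 (SE 0.0645, adjusted p = 7.02e-01) in WT, where it was not called; with libraries scaled to the same total it was lower in both, at -0.16 (adjusted p = 9.15e-03) and -0.29 (adjusted p = 2.64e-03).

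The windows around the start sites also differed between members. An ISRE core lay in 9 of 40 members with a window (22.5%), beside 1079 of 27025 genes (3.99%). Of the 12 members with a window that were called and at least 2-fold higher in WT, 7 held it (58.3%), all in the chromosome 7 group. Trim25 and Trim56, the only ones of the 12 outside that group, did not. The core lay in 1 of 5 that rose by less, Trim26, and in 1 of 11 that fell, Trim2, in only 1 of its windows. None of the 5 not called or the 7 not tested held it. In the chromosome 7 group it lay in 7 of 11 windows (63.6%), which are the same 7 genes. These were Trim21, Trim34a, Trim5, Trim12a, Trim12c, Trim30a and Trim30d. The windows of Trim6, Trim34b, Trim30b and Trim68 did not hold it. That of Trim30b (chr7:104358597-104358896, minus strand) lies inside the gene as annotated in GENCODE vM21 (chr7:104355382-104369884). The bases before that annotated gene start were not searched. Trim30b thus had the highest change with no match in this window, and a match describes letters and not a bound site. These windows are not independent, since Trim30a and Trim30d share a run of 118 identical bases that holds the match, Trim12a and Trim5 a run of 241, and Trim12c a run of 63 with each of these 2. The interferon gamma activated site core TTCNNNGAA, which reads the same on both strands and can share bases with the edge of an ISRE core, lay in 4 of 40 members (10.0%), beside 9.55% of genes, and in none of the 12 that rose most.

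**Figure D4:**
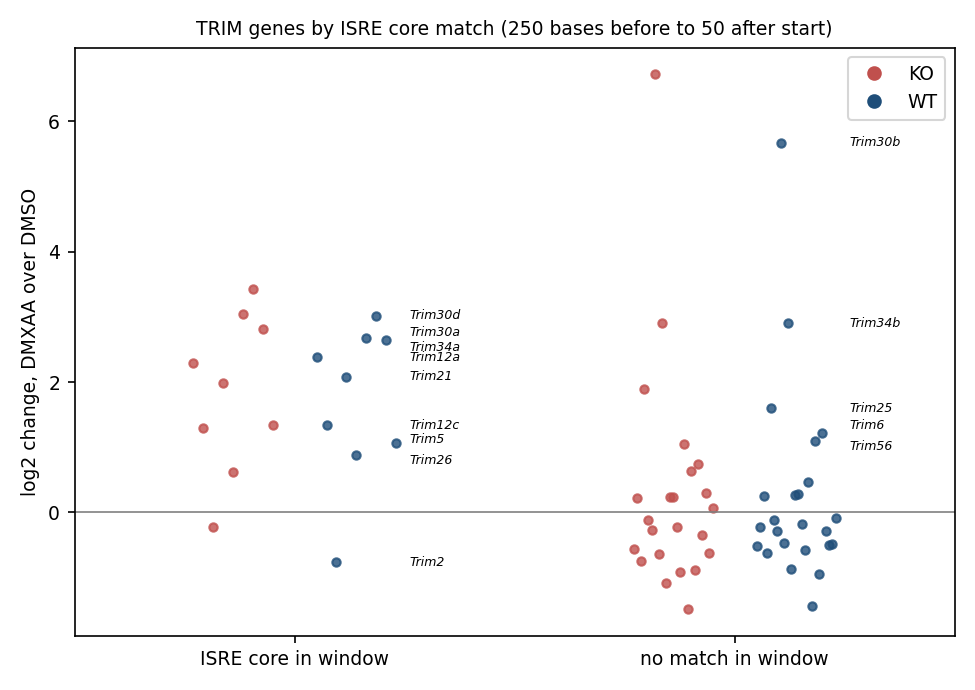
The log2 change of DMXAA over DMSO (y axis) in KO and WT is plotted for tested TRIM genes with and without an ISRE core in the RefSeq window, 1 point per gene and genotype. With a match, 8 of 9 genes lie above 0 in WT. The exception is Trim2 at -0.76, which held the match in only 1 of its windows. Without a match, Trim30b is the highest at 6.72 in KO and 5.67 in WT, and its window lies inside the annotated gene.

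Of the 17 tested members with a known role in antiviral or interferon signalling, those of chromosome 7 included, 10 rose and 4 fell in KO (33.7% and 32.9% of all tested genes did). In WT 11 rose and 4 fell (31.7% and 31.1% of all tested genes), and the medians were 0.62 in KO and 0.88 in WT, beside 0 over all genes. Trim25, which modifies RIG-I, had 23226, 21898 and 23119 in the KO DMXAA libraries, against 6344, 6171 and 5728 in the KO DMSO libraries. It had 23319, 21286 and 22544 in the WT DMXAA libraries, against 7102, 7620.1 and 7346 in the WT DMSO libraries. The log2 change was 1.90 (SE 0.0503, adjusted p = 2.37e-10) in KO and 1.6 (SE 0.0509, adjusted p = 2.15e-09) in WT, with the groups far apart. Trim14, which lacks a RING and is known as an adaptor at MAVS, had 7644, 8279 and 8354 in the KO DMXAA libraries, against 2198, 1912 and 2108 in the KO DMSO libraries. It had 8552, 8809 and 8557 in the WT DMXAA libraries, against 2509, 2424 and 2246 in the WT DMSO libraries. Its change was 1.97 (SE 0.0642, adjusted p = 1.30e-09) in KO and 1.85 (SE 0.0562, adjusted p = 1.53e-09) in WT, and the gene Nans overlaps it on the opposite strand. Trim56, reported to ubiquitinate STING and cGAS, had 414, 339 and 338 in the KO DMXAA libraries, against 248, 239 and 215 in the KO DMSO libraries. It had 420.5, 402 and 398 in the WT DMXAA libraries, against 158, 194 and 226 in the WT DMSO libraries. Its change was 0.63 (SE 0.122, adjusted p = 1.04e-03) in KO, not called with libraries scaled to the same total (0.24, adjusted p = 1.05e-01), and 1.09 (SE 0.138, adjusted p = 6.93e-05) in WT.

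Trim26, known to turn over IRF3, had 9198, 10149 and 9344 in the KO DMXAA libraries, against 6195, 6305 and 6111 in the KO DMSO libraries. It had 11082, 10046 and 10502 in the WT DMXAA libraries, against 5836, 5695 and 5678 in the WT DMSO libraries. All DMXAA libraries lay above the DMSO libraries, and the change was 0.62 (SE 0.0498, adjusted p = 1.49e-06) in KO and 0.88 (SE 0.0509, adjusted p = 2.15e-07) in WT. Trim46, which bundles microtubules in axons, had 414, 490.0 and 588 in the KO DMXAA libraries, against 223, 242 and 249 in the KO DMSO libraries. It had 356, 272 and 356 in the WT DMXAA libraries, against 226, 236 and 250.5 in the WT DMSO libraries. Its change was 1.05 (SE 0.134, adjusted p = 5.37e-05) in KO and 0.46 (SE 0.132, adjusted p = 1.22e-02) in WT, where scaling to the same total ended the call (adjusted p = 3.66e-01). The protein-coding gene Krtcap2 overlaps Trim46 on the opposite strand, and whether counting used strand is not stated. Such overlaps also hold for Trim41 (Rack1), Trim28 (Zbtb45), Trim32 (Astn2) and Trim2 (Gm6525). Trim17 had 41.0, 43.6 and 40.0 in the KO DMXAA libraries, against 26.9, 23.8 and 12.1 in the KO DMSO libraries. It had 34.7 to 70.2 in the WT DMXAA libraries, against 13.9 to 30.3 in the WT DMSO libraries, with no overlap in either genotype. Its change was 1.03 (SE 0.342, adjusted p = 2.19e-02) in KO and 1.33 (SE 0.376, adjusted p = 1.10e-02) in WT, calls that were lost in KO without KO DMSO library 3 or KO DMXAA library 2 (adjusted p = 5.69e-02 to 6.32e-02) and, just at the threshold, in WT without WT DMXAA library 2. The KO call was also lost with libraries scaled to the same total (adjusted p = 1.08e-01) and by DESeq2 (adjusted p = 5.71e-02). Trim17 shares 16.3% of its windows with the histone gene Hist3h2a.

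The smaller rises depended on scaling. Trim11, Trim23, Trim39, Trim41 and Trim8 were called higher in both genotypes, at log2 changes of 0.22 to 0.37 in KO and 0.26 to 0.35 in WT. With libraries scaled to the same total none of these was called higher in either genotype, and all but Trim11 in WT were below 0. The KO calls of Trim23 and Trim39 were also lost when single libraries were left out (up to adjusted p = 1.54e-01 for Trim23, without KO DMXAA library 1, and 1.63e-01 for Trim39, without KO DMXAA library 2).

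Among the members that fell, Trim36, Trim47 and Trim37 fell at least 2-fold in KO, and Trim36 and Trim47 did in WT. Trim36, a microtubule-associated ligase, had 163, 132 and 187 in the KO DMXAA libraries, against 346, 496 and 463 in the KO DMSO libraries. It had 87.7, 133 and 106 in the WT DMXAA libraries, against 292, 349 and 328 in the WT DMSO libraries. The log2 change was -1.43 (SE 0.17, adjusted p = 3.14e-05) in KO and -1.57 (SE 0.167, adjusted p = 1.94e-05) in WT. Trim47 had 978, 951 and 1037 in the KO DMXAA libraries, against 2966, 2639 and 2698 in the KO DMSO libraries. It had 978, 880.2 and 938 in the WT DMXAA libraries, against 2523, 2509.8 and 2497 in the WT DMSO libraries. Its log2 change was -1.48 (SE 0.0687, adjusted p = 2.04e-08) in KO and -1.43 (SE 0.0648, adjusted p = 3.26e-08) in WT. In both genes every DMXAA library lay below every DMSO library. Trim47 overlaps Trim65 on the same strand and shares 4.74% of its windows with it. Trim37, the MATH-domain ligase that limits centriole assembly, had 1967, 2245 and 2149 in the KO DMXAA libraries, against 4518, 4376 and 4535 in the KO DMSO libraries. It had 2139, 2484 and 2140.3 in the WT DMXAA libraries, against 4222, 4024 and 4069 in the WT DMSO libraries. Its groups did not overlap, and its change was -1.08 (SE 0.0605, adjusted p = 9.35e-08) in KO and -0.87 (SE 0.0694, adjusted p = 2.42e-06) in WT.

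Among the other members that fell in both genotypes, the membrane-anchored Trim59 changed by -0.89 in KO and -0.94 in WT, and Trim13, the other member with a transmembrane segment, by -0.56 and -0.52. Trim45, the filamin-repeat member, changed by -0.92 and -0.58, Trim16 by -0.96 and -0.60, and Trim32, an NHL ligase of muscle, by -0.64 and -0.47. Of the 4 PHD-bromodomain members, which are chromatin cofactors, 3 fell and 1 was not called in each genotype (32.9% of all tested genes fell in KO and 31.1% in WT). Trim24 changed by -0.75 (SE 0.0783, adjusted p = 1.16e-05) in KO and -0.62 (SE 0.096, adjusted p = 2.73e-04) in WT, Trim33 by -0.28 and -0.24, and Trim28 as given above. Trim33 lost its WT call without WT DMSO libraries 2 or 3 or WT DMXAA library 3 (adjusted p = 6.09e-02 to 7.20e-02). Trim62 changed by -0.35 in KO and -0.29 in WT, and lost its KO call without KO DMSO libraries 1 or 3 or KO DMXAA library 1 (adjusted p = 5.84e-02 to 6.87e-02) and its WT call without WT DMSO libraries 1, 2 or 3 or WT DMXAA library 3 (adjusted p = 5.38e-02 to 9.42e-02). Of the PRY-SPRY members with a RING 15 of 24 tested rose and 4 fell in KO (33.7% and 32.9% of all tested genes did), and 16 of 25 rose and 4 fell in WT (31.7% and 31.1%). Their medians were 0.68 and 0.88, beside 0 over all genes. These counts and medians include the 11 tested genes of the chromosome 7 group, of which 9 rose and 1 fell in KO, and 10 rose and 1 fell in WT.

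Trim2, an NHL ligase known from neurons, had 218, 193 and 223 in the KO DMXAA libraries, against 328, 269 and 172 in the KO DMSO libraries. It had 232, 350.2 and 216 in the WT DMXAA libraries, against 393, 478 and 456 in the WT DMSO libraries. In KO the groups overlapped and the change of -0.23 (SE 0.209, adjusted p = 3.53e-01) was not called, while in WT it was -0.76 (SE 0.176, adjusted p = 3.68e-03) with no overlap. Without KO DMSO library 3, the lowest of its group, Trim2 was called in KO too (adjusted p = 1.42e-02), as it was with libraries scaled to the same total (-0.62, adjusted p = 2.43e-02). Of the 54 members, 10 were listed but too low to test in WT: Trim29, Trim30e-ps1, Trim38, Trim43a, Trim43b, Trim54, Trim69, Trim72, Trim75 and Trim9. In KO Trim15 was also too low, and Trim54 was not listed.

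Under DMSO, KO macrophages had less of 7 members than WT macrophages and more of none. These were 7 of 44 tested (15.9%), close to the 16.6% of all tested genes called in either direction (9.58% lower and 7.04% higher), so the share called is no result about the family. At an unadjusted p under 0.05, 2 members were higher by limma, and edgeR called 0 and DESeq2 0 after adjustment. Trim36 was called higher (0.38, adjusted p = 4.92e-02) with title number as a block, and without KO DMSO library 1 (0.53, adjusted p = 2.11e-02), and was not called otherwise (0.38, adjusted p = 9.59e-02). The libraries did not overlap for 16 of 44 members (34.7% of all tested genes). The median difference was -0.03, beside 0.01 over all genes. Trim30a had 6327, 6614 and 6245 in the KO DMSO libraries, against 8736, 9634 and 9001 in the WT DMSO libraries (normalized counts of the DMSO table). The groups did not overlap, and KO differed from WT by -0.51 (SE 0.0567, adjusted p = 1.30e-04) on the log2 scale. Trim30d had 1875, 2091 and 2149 in the KO DMSO libraries, against 2988, 3053 and 2469 in the WT DMSO libraries, also apart, a difference of -0.47 (SE 0.0902, adjusted p = 4.46e-03). Trim2 had 358, 294 and 186 in the KO DMSO libraries, against 439.8, 537 and 511 in the WT DMSO libraries, with the lowest library in KO, and differed most among those called, by -0.87 (SE 0.199, adjusted p = 1.22e-02).

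Trim25 had 6903, 6739 and 6222 in the KO DMSO libraries, against 7955, 8549 and 8219 in the WT DMSO libraries, with no overlap and a difference of -0.32 (SE 0.0587, adjusted p = 3.77e-03). Trim68, at -0.43 (SE 0.112, adjusted p = 2.32e-02), lost its call without KO DMSO libraries 1 or 2 or WT DMSO libraries 2 or 3 (adjusted p = 7.32e-02 to 8.39e-02). Trim34a, at -0.36 (SE 0.105, adjusted p = 3.80e-02), lost its call without KO DMSO libraries 1, 2 or 3 or WT DMSO libraries 1 or 2 (adjusted p = 5.33e-02 to 1.15e-01). Trim14, at -0.25 (SE 0.0735, adjusted p = 3.97e-02), lost its call without KO DMSO libraries 1, 2 or 3 or WT DMSO libraries 1 or 2 (adjusted p = 5.05e-02 to 1.39e-01). Trim30b had 28.2, 7.40 and 15.3 in the KO DMSO libraries, against 30.2, 35.2 and 41.0 in the WT DMSO libraries, and its difference of -1.19 (SE 0.446, adjusted p = 9.80e-02) was not called, though it was without KO DMSO library 1 (adjusted p = 3.76e-02). With libraries scaled to the same total, Trim34a (adjusted p = 5.32e-02) and Trim14 (adjusted p = 5.57e-02) were not called either. Without KO DMSO library 2 or WT DMSO library 2, 4 members were called lower. In the chromosome 7 group, 4 of 11 tested members were lower (9.58% of all tested genes were) and 7 were not called. Their median was -0.25, beside 0.01 over all genes. Beside these differences, the 5 neutrophil markers summed to 0.733 to 1.05 reads per M in KO DMSO, against 3.87 to 5.38 in WT DMSO, with Ly6g and Elane at 0 in both, and the 5 stromal markers to 0.631 to 5.57 in KO DMSO, against 0.185 to 0.564 in WT DMSO. The 4 B cell markers summed to 0.39 to 0.751 in KO DMSO, against 1.18 to 1.98 in WT DMSO. Their part in the differences was not tested.

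Under DMXAA, 7 members were lower and 4 higher in KO than in WT, 25.6% of the 43 tested, beside 21.5% of all tested genes (10.8% lower and 10.7% higher). The libraries did not overlap for 14 of 43 members (37.6% of all tested genes). The median difference was -0.07, beside 0 over all genes. Of the 11 tested genes of the chromosome 7 group, 6 were lower and none higher, at a median of -0.22. Trim21 had 6822, 7504 and 7672 in the KO DMXAA libraries, against 9361, 8526 and 8686 in the WT DMXAA libraries (normalized counts of the DMXAA table), with no overlap and a log2 difference of -0.27 (SE 0.0556, adjusted p = 5.69e-03). Trim12c had 5898, 5718 and 5722 in the KO DMXAA libraries, against 6748, 6865 and 6580.3 in the WT DMXAA libraries, also apart, a difference of -0.22 (SE 0.0418, adjusted p = 3.85e-03). These 2 calls held without any 1 library.

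The other 5 lower calls did not, and the count of 7 fell to 2 without KO DMXAA library 1, to 3 without WT DMXAA library 1 or 3 and to 4 without KO DMXAA library 2 or 3. Trim12a, at -0.30 (SE 0.0879, adjusted p = 3.31e-02), was lost without KO DMXAA libraries 1 or 3 or WT DMXAA libraries 1 or 3 (adjusted p = 5.16e-02 to 1.18e-01). Trim34a, at -0.20 (SE 0.0518, adjusted p = 1.85e-02), was lost without KO DMXAA libraries 1 or 2 or WT DMXAA library 2 (adjusted p = 5.64e-02 to 6.80e-02). Trim30a had 44225, 40889 and 45955 in the KO DMXAA libraries, against 48719, 48260.4 and 47146 in the WT DMXAA libraries, and its difference of -0.14 (SE 0.0442, adjusted p = 4.75e-02) was lost without KO DMXAA libraries 1 or 2 or WT DMXAA libraries 1, 2 or 3 (adjusted p = 6.69e-02 to 1.37e-01). Trim68 had 149.9, 169 and 134 in the KO DMXAA libraries, against 271, 169 and 246 in the WT DMXAA libraries, groups that overlapped, and its difference of -0.57 (SE 0.181, adjusted p = 4.52e-02) was lost without KO DMXAA libraries 1, 2 or 3 or WT DMXAA libraries 1 or 3 (adjusted p = 5.21e-02 to 1.56e-01). With no filter on low values Trim30a (adjusted p = 6.71e-02) and Trim68 (adjusted p = 7.18e-02) were not called, and edgeR did not call Trim30a (adjusted p = 5.29e-02). Trim14, at -0.14 (SE 0.0458, adjusted p = 5.51e-02), was not called, but was lower by edgeR (adjusted p = 4.92e-02), by DESeq2 (adjusted p = 2.40e-02) and with the same upper quartile (adjusted p = 3.68e-02) or total (adjusted p = 1.39e-02). Trim26, at -0.18 (SE 0.0528, adjusted p = 3.07e-02), was lost without KO DMXAA libraries 1 or 3 or WT DMXAA libraries 1 or 3 (adjusted p = 6.79e-02 to 1.12e-01).

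Of the members that were higher in KO under DMXAA, Trim46 had 371, 438 and 525 in the KO DMXAA libraries, against 329.5, 250.4 and 328 in the WT DMXAA libraries, a difference of 0.55 (SE 0.148, adjusted p = 2.25e-02) that was lost without KO DMXAA libraries 2 or 3 or WT DMXAA library 2 (adjusted p = 5.62e-02 to 8.72e-02). Trim3 had 8418, 8886 and 8431 in the KO DMXAA libraries, against 7275, 6408 and 7081 in the WT DMXAA libraries, a difference of 0.31 (SE 0.0536, adjusted p = 2.07e-03). Trim35 had 3218, 3329.7 and 3503 in the KO DMXAA libraries, against 2736, 2866 and 2701 in the WT DMXAA libraries, a difference of 0.27 (SE 0.053, adjusted p = 4.15e-03). Trim8, a ligase of cytokine signalling, differed by 0.22 (SE 0.0502, adjusted p = 1.11e-02). In these 4 genes each KO library lay above each WT library, and the calls of Trim3, Trim35 and Trim8 held without any 1 library. The 5 neutrophil markers summed to 0.611 to 0.712 reads per M in KO DMXAA, against 2.22 to 2.77 in WT DMXAA, with Mpo and Elane at 0 in both. The 4 B cell markers summed to 0.302 to 0.53 in KO DMXAA, against 0.53 to 0.799 in WT DMXAA, and the part of these markers was not tested.

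**Figure D5:**
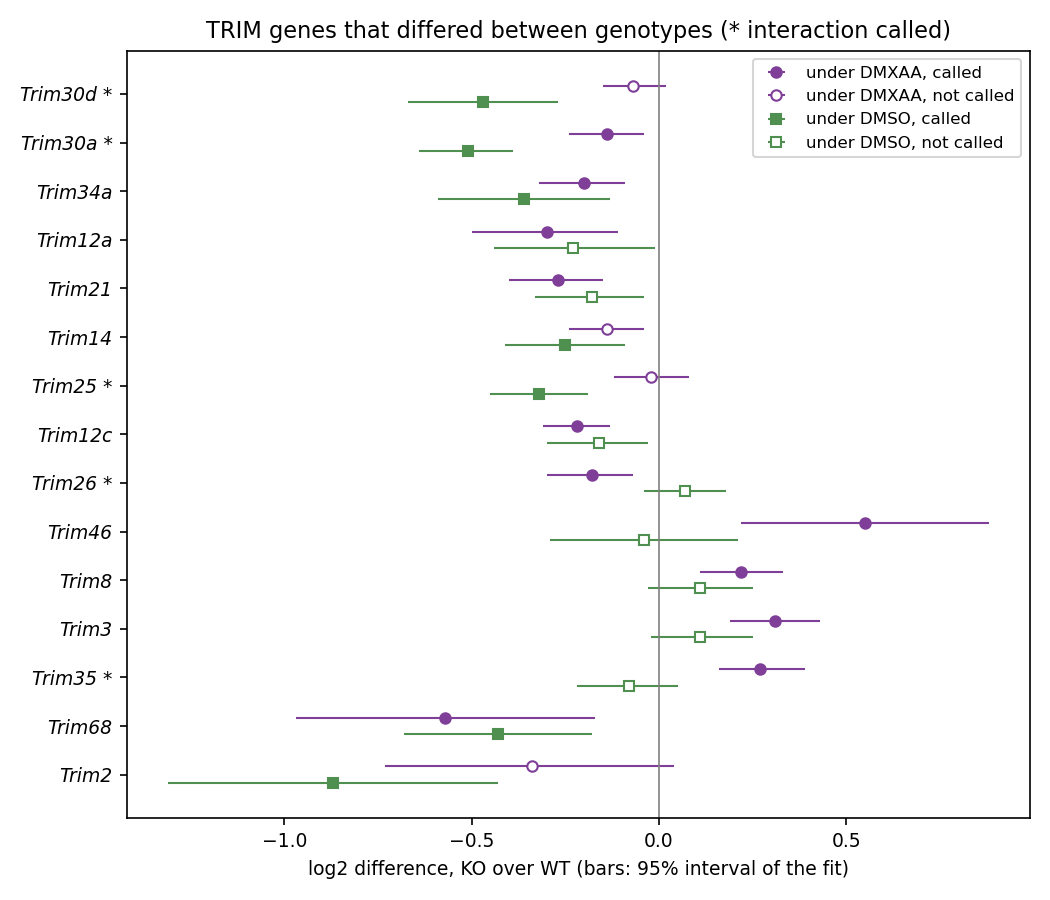
The log2 difference of KO over WT (x axis, with the 95% interval of the fit) under DMXAA and under DMSO is plotted for the 15 TRIM genes called in either comparison or in the interaction (marked *), filled where called. Trim30a stands at -0.14 under DMXAA and -0.51 under DMSO, and Trim35 at 0.27 and -0.08.

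The response itself differed between the genotypes for 5 of 44 tested members (11.4%, beside 8.60% of all tested genes), 4 with the larger value in KO (5.37% of all tested genes) and 1 with the larger value in WT (3.24%). This interaction is the log2 response in KO minus that in WT, fitted over all 12 libraries. It was 0.37 (SE 0.07, adjusted p = 4.05e-03) for Trim30a, 0.41 (SE 0.104, adjusted p = 2.55e-02) for Trim30d, 0.30 (SE 0.0729, adjusted p = 2.03e-02) for Trim25 and -0.26 (SE 0.0698, adjusted p = 3.52e-02) for Trim26. For Trim35 it was 0.36 (SE 0.0771, adjusted p = 1.02e-02). Trim35 had 3589.6, 3725 and 3918 in the KO DMXAA libraries, against 3742, 3793 and 3865 in the KO DMSO libraries, which overlapped, a change of -0.02 (SE 0.0521, adjusted p = 7.23e-01). It had 2959, 3119 and 2931 in the WT DMXAA libraries, against 3642, 4069.6 and 4022 in the WT DMSO libraries, with all DMXAA libraries lower, a change of -0.38 (SE 0.0614, adjusted p = 3.86e-04). Its KO change depended on scaling, at -0.15 (adjusted p = 2.87e-02) with the same upper quartile and -0.41 (adjusted p = 3.54e-05) with the same total.

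The calls of Trim30a and Trim35 held without any 1 library. The call of Trim25 was lost without WT DMSO library 2 or KO DMXAA libraries 1 or 3 or WT DMXAA library 2 (adjusted p = 5.11e-02 to 5.70e-02), that of Trim30d without KO DMSO library 1 or WT DMSO libraries 1 or 2 or KO DMXAA libraries 1 or 3 or WT DMXAA library 3 (adjusted p = 5.08e-02 to 6.50e-02), and that of Trim26 without KO DMSO libraries 1 or 2 or WT DMSO libraries 2 or 3 or KO DMXAA libraries 1 or 3 or WT DMXAA libraries 1 or 3 (adjusted p = 6.35e-02 to 8.95e-02). With libraries scaled to the same total, Trim25 (adjusted p = 8.90e-02) and Trim30d (adjusted p = 5.81e-02) were not called. For Trim30a, Trim30d and Trim25 the interaction and the difference under DMSO rest on the same DMSO libraries, so the values stand side by side: under DMXAA they differed between KO and WT by -0.14, -0.07 and -0.02, against -0.51, -0.47 and -0.32 under DMSO. Trim30b had the highest estimate, 1.05 (SE 0.434, adjusted p = 1.68e-01), with a 95% interval of 0.12 to 1.98, and was not called, though it was by DESeq2 (adjusted p = 1.62e-02) and without KO DMSO library 1 (adjusted p = 0.01).

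Genes that work with the family were described by lists. Of the 5 interferon response transcription factors, all rose in both genotypes, where 33.7% of all tested genes rose in KO and 31.7% in WT. Irf7 rose by 6.93 in KO and 4.84 in WT, and Stat2 by 3.96 and 3.51. Between KO and WT, Irf7 differed by 0.10 (adjusted p = 4.31e-02) under DMXAA and -1.98 (adjusted p = 1.74e-06) under DMSO, and Stat2 by -0.10 (adjusted p = 5.24e-02) and -0.55 (adjusted p = 1.23e-04). These comparisons share libraries with the responses. Of the 10 ubiquitin-conjugating enzymes that TRIM ligases use, 7 rose in KO (33.7% of all tested genes did) and 6 in WT (31.7%), and none fell. Ube2l6, which also charges the ubiquitin-like protein ISG15, changed by 3.42 in KO and 3.04 in WT. Ube2k changed by 0.53 and 0.37, and Ube2v1, a partner of Ube2n in K63 chains, by 0.46 and 0.30, sizes near the -0.39 in KO and -0.32 in WT by which scaling to the same total moves the median gene.

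Of the 13 sensing proteins that TRIM ligases modify or bind, 8 rose and 1 fell in each genotype, where 33.7% of all tested genes rose and 32.9% fell in KO, and 31.7% rose and 31.1% fell in WT. Ddx58, which encodes RIG-I, rose by 3.48 in KO and 3.22 in WT, Ifih1, which encodes MDA5, by 3.13 and 3.07, and Rnf135, a ligase of RIG-I, by 1.46 and 1.78. Of the TRIM relatives under other symbols, 3 of 5 tested rose in each genotype, and 2 fell in KO and 1 in WT. Pml, the organiser of nuclear bodies, rose by 2.79 in KO and 2.74 in WT, Mid1 by 3.12 and 2.40, and Mefv, which encodes pyrin, by 1.09 and 0.96. Mefv was also lower in KO than in WT, with log2 differences of -0.88 (adjusted p = 2.50e-03) under DMXAA and -1.01 (adjusted p = 6.92e-04) under DMSO. Mid1 was higher in KO under DMXAA, by 0.61 (adjusted p = 1.44e-03), and differed by -0.12 (adjusted p = 6.94e-01) under DMSO.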

How the data were processed

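Per the labels' protocols, a Qiagen column kit gave the RNA and a BGI strand-specific kit the mRNA libraries; per the submitters' processing notes, reads were treated with HISAT2, featureCounts and the mm10 genome (no versions or strand setting stated). Deposited values are normalized counts, a signal the authors scaled separately in 4 tables (KO, WT, DMSO and DMXAA libraries). The authors' deposited comparison tables hold log2 fold changes, p-values and a test score, which were not used for the results. Whole reads were recovered for 100% of values (tolerance 0.01). Depth was 79.5 to 98.1 M reads, and a floor of 3 reads is 0.0306 to 0.0377 per M; this covers counting error only.

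Each comparison was fitted within the table holding both groups with limma 3.58.1 (R 4.3.3; lmFit, eBayes with trend) on log2(normalized count + 1), for genes with a mean of at least 10, Benjamini-Hochberg over all tested genes, two-sided, called below 0.05. Fold changes are on that scale, with fit SEs and 3 libraries per group. The interaction used the DMSO and DMXAA tables. Pseudocounts, filters, scalings, edgeR 4.0.16 and DESeq2 1.42.0 on recovered reads, a replicate block and leaving out each library were alternatives. On simulated data, 86.9 to 91.0% of 2-fold changes were recovered in pair comparisons and 76.5% in the interaction. Libraries with the same title number had correlations of -0.04 to 0.07, too weak to show whether samples were paired, so the main fit used no pairing. Full values are given for members called with an absolute log2 change of at least 1 in a response or 0.5 between genotypes, called in the interaction, or among the 3 highest per length in WT DMSO. The members and lists were chosen with earlier results of these data known. Other members given with values were chosen after their values were seen. Of each list of other genes, the members with the 3 smallest p-values in the WT response are named, except for an item not reported here.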

Additional observations from a re-analysis of the deposited data

Results flagged for a closer look

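The response to DMXAA differed between KO and WT, by the interaction of the limma fit over 12 libraries, for 5 members. Trim30a differed by 0.37 (adjusted p = 4.05e-03), with log2 responses of 3.05 in KO and 2.68 in WT. Trim30d differed by 0.41 (adjusted p = 2.55e-02), with 3.43 in KO and 3.02 in WT. Trim25 differed by 0.30 (adjusted p = 2.03e-02), with 1.90 in KO and 1.6 in WT. Trim35 differed by 0.36 (adjusted p = 1.02e-02), with -0.02 in KO and -0.38 in WT. Trim26 differed by -0.26 (adjusted p = 3.52e-02), with 0.62 in KO and 0.88 in WT. In Trim30a, Trim30d, Trim25 and Trim26 both genotypes rose, so these are differences of size and not of direction. Only the calls of Trim30a and Trim35 held whichever single library was left out. Those of Trim25 and Trim30d were also lost with libraries scaled to the same total. Between KO and WT, Trim30a, Trim30d and Trim25 differed by -0.51, -0.47 and -0.32 under DMSO, and by -0.14, -0.07 and -0.02 under DMXAA.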

How the results depend on the processing

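Scaling to the same total turned round these calls of a rise: in KO Trim11 to -0.06, Trim23 to -0.17, Trim3 to -0.16, Trim39 to -0.16, Trim41 to -0.16 and Trim8 to -0.02, and in WT Trim23 to -0.06, Trim39 to -0.05, Trim41 to -0.04 and Trim8 to -0.06. It moved the members' median response to -0.16 in KO and -0.17 in WT, the members called higher in KO to 13, and those called higher in the interaction to 2. Scaling to the same upper quartile moved the medians to 0.10 in KO and 0.04 in WT, with all-gene medians of -0.13 and -0.11 and 38.6% and 39.2% of called genes higher. With the same total, higher genes made up 34.3% of all calls between genotypes under DMXAA (49.7% as reported) and 39.2% in the interaction (62.4% as reported). On recovered reads edgeR called 8475 genes in the KO response, 8003 in the WT response, 2652 between genotypes under DMXAA, 2127 under DMSO and 1123 in the interaction. The cause was not tested. Leaving out 1 library gave a median response of 0.11 to 0.25 in WT. In KO over WT it gave 0 to 1 members called higher and 4 to 7 lower under DMSO, and 2 to 5 lower under DMXAA. In the interaction it gave 2 to 4 higher (2 without WT DMSO library 2 or KO DMXAA library 3) and 0 to 1 lower. Title numbers and the numerals in the library names disagree, and whether either marks paired samples is not stated. With title number as a replicate block, KO over WT had 1 member, Trim36, higher under DMSO and 4 lower under DMXAA, and the interaction had 0 lower; the WT response kept its 36 called members, and the KO response kept 35, lost Trim23 and gained Trim6. In the KO response each pair correlated best with its own number (0.03 to 0.06), a hint from the data and not the design. Members with a mean under 10, 10 of 54 in WT, were left out by the filter on low values. With no such filter Trim9 was also called in the WT response, on few reads. It had 4, 4 and 4 reads in the WT DMSO libraries and 0, 0 and 0 in the WT DMXAA libraries.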
